A study of Arabidopsis thaliana with 20 samples.

Results

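Salt and drought genes were examined in roots of Arabidopsis that lacked 1, 2, or 3 of the type-B response regulators ARR1, ARR10, and ARR12. They are the genes that the study's gene ontology lists of down-regulated genes give for response to salt stress or for response to water deprivation. Of 52 genes on either list, 8 were left out because 3 other lists (oxidative stress, reactive oxygen species, secondary metabolic process) also held them and 3 were left out by name, which left 41. Of these, 24 stood on the salt list only, 10 on the water list only, and 7 on both. A probe could be assigned to 28 of the 41, out of 2072 genes with an assigned probe in the whole series and 43603 probes on the array. All 28 passed the filter on dim probes. The other 13 (CCR2, JR1, PIP1;4, CBL1, IRX1, AT4G23670, MYB4, IMD1, TUB8, SOS3, HVA22E, FUM2, and PLC1) all belong to Cluster 15 and are not analysed here, so Cluster 15 is described from 13 of its 26 members.

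The study sorted its genes into clusters by the mutants in which it called them lower. The 28 genes comprise 3 of Cluster 3 (called in arr12), 7 of Cluster 5 (arr1/10), 1 of Cluster 7 (arr1/12), 4 of Cluster 9 (arr10/12), and 13 of Cluster 15 (the triple mutant). The mutant values therefore chose the members, and all differences between mutants and WT are given here as a description with no test. The rule for the members did not use the exogenous cytokinin comparison, which was tested. The rule and the names left out were, however, set with earlier results of these data known.

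Roots were cut near the junction with the hypocotyl from 10-day-old seedlings grown on vertical plates under continuous light. The 10 groups had 2 arrays each, called replicates 1 and 2. The untreated groups were WT (Col-0), the single mutants arr1 (allele arr1-3), arr10 (arr10-5), and arr12 (arr12-1), the triple mutant arr1/10/12, and the 3 double mutants, which are arr1/10, arr10/12, and arr1/12. The mutants were T-DNA lines with the same alleles throughout, and the single mutants and arr1/12 were isolated apart from arr1/10, arr10/12, and the triple mutant. The remaining groups were WT seedlings given mock treatment or 5 μM N6-benzyladenine, a cytokinin (CK), for 1 h.

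When water is short or salt accumulates, plants make the hormone abscisic acid (ABA), which switches on transcription factors of the bZIP, NAC, and MYB families. These factors in turn induce protective proteins and enzymes that make osmolytes. Cytokinin signals run from membrane histidine kinases such as WOL through phosphotransfer proteins to the type-B ARRs, and cytokinin and ABA act against each other in many stress responses.

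All values are log2 signals after background subtraction and quantile normalization, and a fold change is a difference of log2 means with the standard error of the limma fit. The signal was well above background in 71.8% to 78.8% of the probes per array. The deleted genes RR10 (ARR10) and RR12 (ARR12) were at most 8.57 and 5.74 in the mutants that lack them, against 13.59 and 13.25 (RR10) and 11.79 and 11.72 (RR12) in WT. RR1 (ARR1) was 7.58 to 8.28 in arr1/10, arr1/12, and arr1/10/12, but 12.27 and 12.52 on the arrays labelled arr1, against 11.99 and 12.01 for WT, so arr1 below means the arrays labelled arr1. In a bulk root sample, fewer cells of a type and less RNA per cell cannot be told apart. Of 14 listed markers of green tissue 3 had an assigned probe (LHB1B1, LHCA3, PSAH-1), as did 2 of 12 root markers (EXPA7, IRT1), all of them genes that the study listed as changed. The log2 of the summed green tissue markers was 15.92 and 14.58 in arr1/10/12, 12.96 and 13.15 in WT, and 12.98 to 13.76 in the other untreated mutants. That of the root markers was 11.62 and 12.59 in arr1/10/12, 13.91 and 14.32 in WT, and 13.24 to 14.58 in the other untreated mutants, and the part of these shifts in the values of arr1/10/12 below was not tested.

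Across the 28 genes, the median log2 fold change against WT lay close to 0 for arr1 (−0.03), arr10 (−0.06), and arr12 (−0.10). It was −0.19 for arr1/10, −0.15 for arr1/12, −0.21 for arr10/12, and −0.85 for the triple mutant. The medians over all 34034 tested probes lay between −0.01 and −0.08. The triple mutant had the lowest mean of the 8 untreated groups for 21 of the 28 genes, the double mutants for 6, and the arr1-labelled arrays for 1. The share of such probes among all was not computed. In 16 genes both arr1/10/12 arrays lay below the other 14 untreated arrays (29.9% of all tested probes), and in 4 both lay above them (21.8%). The 16 include all 13 Cluster 15 genes, which were chosen because the study called them lower in the triple mutant. The map of the members by array shows the values.

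**Figure D1:**
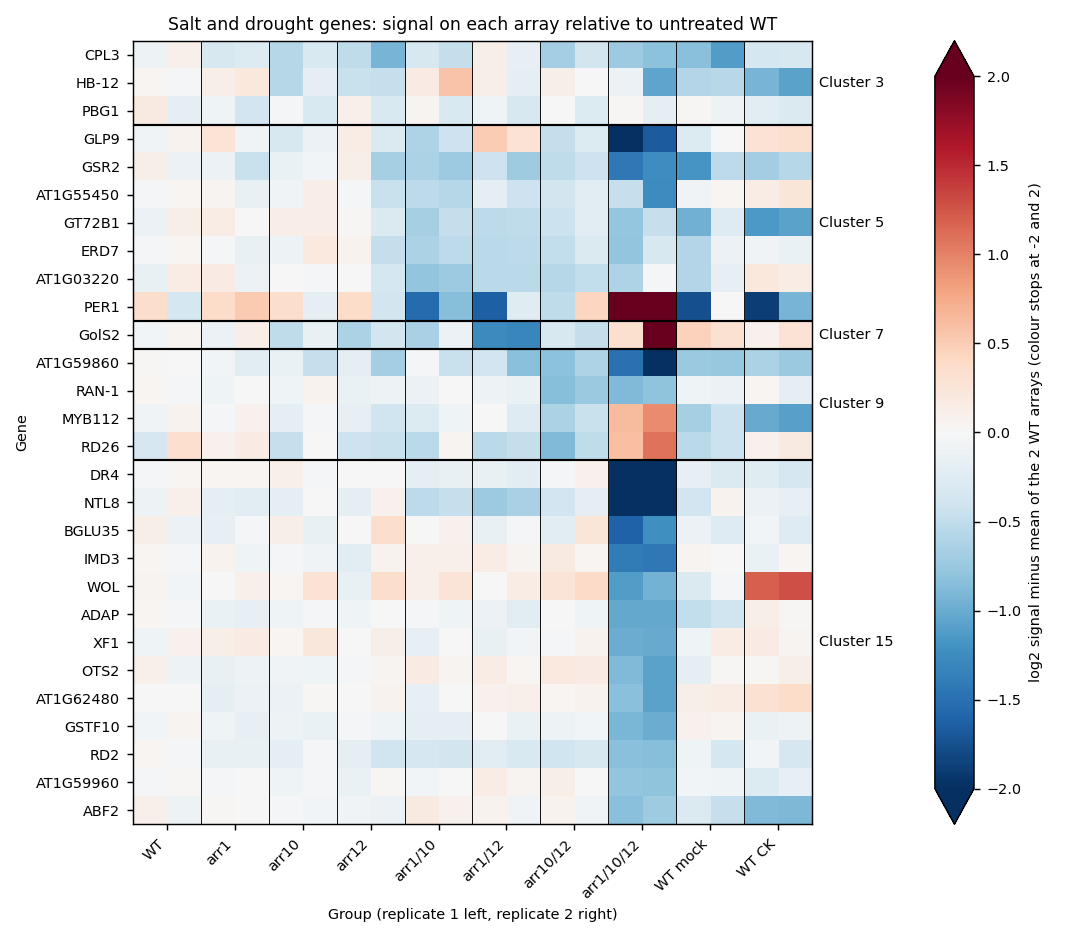
Log2 signal of the 28 genes (rows, grouped by cluster) on each of the 20 arrays (columns, replicate 1 left and replicate 2 right in each group), minus the mean of the WT arrays; blue is lower and red is higher, and colours stop at −2 and 2. The 13 Cluster 15 genes are lower on both arr1/10/12 arrays, and PER1, GolS2, RD26, and MYB112 are higher there.

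In the triple mutant, 24 of the 28 genes had a lower mean than in WT and 4 a higher one. Both arr1/10/12 arrays lay below both WT arrays for 22 genes (39.9% of all tested probes) and above them for 4 (31.3%). The fit called 21 of them lower (31.1% of all probes) and 4 higher (23.2%). Without WT replicate 1 or without arr1/10/12 replicate 2, only PER1 and MYB112 were called higher. Since this contrast entered the choice of the members, nothing is read from these counts. In single mutants limma called none. Of all probes it called 0.0529% lower and 0.047% higher for arr1, 0.0264% and 0.0176% for arr10, and 0.0676% and 0.0588% for arr12. Of the 28 genes, 2 were at an unadjusted p under 0.05 in at least 1 single mutant (17% of all probes). In double mutants 1 gene was called lower in arr1/12 (NTL8; 1.37% of all probes), 1 in arr10/12 (RAN-1; 0.0911%), and none in arr1/10 (0.441%), where 9 genes had an unadjusted p under 0.05 (20.2% of all probes). None was called higher in a double mutant (0.523% of all probes for arr1/10, 1.43% for arr1/12, and 0.214% for arr10/12). The 2 genes called lower became 1 without any 1 of the WT, arr1, arr1/12, or CK arrays and 4 without either arr1/10/12 array.

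Of the 7 transcription regulators, 5 were lower and 2 higher in the triple mutant than in WT. NTL8, a NAC factor that is made anchored to a membrane and acts in salt responses of germination, read 6.43 and 6.64 for WT, 6.35 and 6.31 for arr1, 6.36 and 6.55 for arr10, and 6.35 and 6.62 for arr12. It read 6.01 and 6.07 for arr1/10, 5.81 and 5.89 for arr1/12, and 6.15 and 6.35 for arr10/12, against 4.40 and 4.52 for arr1/10/12, 6.15 and 6.61 for mock-treated WT, and 6.42 and 6.36 for CK-treated WT. Neither arr1/10/12 array was well above background for NTL8. At its measured signal it was 4.21-fold lower there than in WT, a bound that leaves out the spread between arrays. With 1 array left out, its log2 fold change there ranged from −2.18 to −1.97. The double mutants lay between, at log2 fold changes of −0.49 ± 0.15 in arr1/10, −0.68 ± 0.15 in arr1/12, and −0.28 ± 0.15 in arr10/12. All their arrays lay below both WT arrays, and those of arr1/10 and arr1/12 also lay below every single mutant array.

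ABF2, a bZIP factor that binds ABA-responsive promoter elements, was even across the single and double mutants. It read 12.50 and 12.30 for WT, 12.43 and 12.40 for arr1, 12.38 and 12.34 for arr10, and 12.33 and 12.29 for arr12. It read 12.58 and 12.49 for arr1/10, 12.47 and 12.32 for arr1/12, and 12.47 and 12.33 for arr10/12, against 11.57 and 11.69 for arr1/10/12, 12.12 and 11.94 for mock-treated WT, and 11.52 and 11.50 for CK-treated WT. Only in the triple mutant among the untreated groups did both arrays lie below all others, with a log2 fold change of −0.77 ± 0.10. ADAP, an AP2-domain protein that binds an ABA-signalling partner of ABF2, also had its lowest untreated level in the triple mutant. It read 12.97 and 12.90 for WT, 12.80 and 12.78 for arr1, 12.85 and 12.90 for arr10, and 12.85 and 12.94 for arr12. It read 12.91 and 12.86 for arr1/10, 12.83 and 12.73 for arr1/12, and 12.94 and 12.85 for arr10/12, against 11.91 and 11.91 for arr1/10/12, 12.44 and 12.53 for mock-treated WT, and 13.05 and 12.97 for CK-treated WT. Its arrays labelled arr1 and those of arr10 and arr1/12 also lay below both WT arrays, by less. The 14 other untreated arrays spanned 12.73 to 12.97, and the log2 fold change in arr1/10/12 was −1.03 ± 0.08.

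CPL3, a small MYB protein of the CAPRICE family that acts in epidermal hair patterning, and HB-12, a homeodomain-leucine zipper factor induced by ABA and drought, both belong to Cluster 3. CPL3 read 9.26 and 9.46 for WT, 9.03 and 9.09 for arr1, 8.78 and 9.06 for arr10, and 8.85 and 8.42 for arr12. It read 9.04 and 8.88 for arr1/10, 9.47 and 9.20 for arr1/12, and 8.68 and 8.99 for arr10/12, against 8.63 and 8.53 for arr1/10/12, 8.52 and 8.25 for mock-treated WT, and 9.01 and 9.03 for CK-treated WT. It was lower than WT in every mutant but arr1/12, where the arrays overlapped those of WT, and its log2 fold change was −0.73 ± 0.17 in arr12 and −0.78 ± 0.17 in arr1/10/12. HB-12 read 11.41 and 11.33 for WT, 11.49 and 11.58 for arr1, 10.80 and 11.18 for arr10, and 10.93 and 10.91 for arr12. It read 11.53 and 11.95 for arr1/10, 11.49 and 11.18 for arr1/12, and 11.48 and 11.38 for arr10/12, against 11.25 and 10.31 for arr1/10/12, 10.79 and 10.82 for mock-treated WT, and 10.44 and 10.30 for CK-treated WT. Its log2 fold change was −0.45 ± 0.24 in arr12 but 0.37 ± 0.24 in arr1/10, and in arr10/12 its arrays overlapped those of WT.

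RD26, a NAC factor induced by dehydration and ABA, and MYB112, an R2R3-MYB factor that promotes anthocyanin formation under salt stress, were lower in arr10/12 and higher in the triple mutant. RD26 read 12.11 and 12.80 for WT, 12.54 and 12.62 for arr1, 12.00 and 12.46 for arr10, and 12.04 and 12.02 for arr12. It read 11.92 and 12.50 for arr1/10, 11.92 and 11.97 for arr1/12, and 11.58 and 11.95 for arr10/12, against 13.06 and 13.54 for arr1/10/12, 11.91 and 12.02 for mock-treated WT, and 12.55 and 12.63 for CK-treated WT. Both arr10/12 arrays lay below and both arr1/10/12 arrays above both WT arrays, although the WT arrays themselves differed by 0.69. The log2 fold changes were −0.69 ± 0.25 in arr10/12 and 0.85 ± 0.25 in arr1/10/12. MYB112 read 9.84 and 9.97 for WT, 9.88 and 9.99 for arr1, 9.71 and 9.87 for arr10, and 9.74 and 9.50 for arr12. It read 9.63 and 9.81 for arr1/10, 9.89 and 9.65 for arr1/12, and 9.26 and 9.46 for arr10/12, against 10.53 and 10.85 for arr1/10/12, 9.24 and 9.47 for mock-treated WT, and 8.90 and 8.82 for CK-treated WT. Its log2 fold change was −0.54 ± 0.14 in arr10/12 and 0.79 ± 0.14 in arr1/10/12.

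Among the 8 protective proteins and osmolyte enzymes, 6 were lower and 2 higher in the triple mutant. PER1, a 1-Cys peroxiredoxin best known from seeds, had the highest log2 fold change of the 28 genes there, 4.59 ± 0.62. It read 9.25 and 8.55 for WT, 9.27 and 9.42 for arr1, 9.25 and 8.72 for arr10, and 9.27 and 8.53 for arr12. It read 7.35 and 8.04 for arr1/10, 7.27 and 8.65 for arr1/12, and 8.39 and 9.32 for arr10/12, against 13.13 and 13.84 for arr1/10/12, 7.13 and 8.89 for mock-treated WT, and 7.02 and 7.96 for CK-treated WT. Its arr1/10 arrays were both below WT, its arr1/12 and arr10/12 arrays overlapped WT, and its arr1/10/12 arrays were above all other arrays. The replicates of PER1 were also uneven, differing by 1.76 between the mock-treated arrays.

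GolS2, a galactinol synthase that starts the formation of raffinose-family sugars, was lowest in arr1/12. It read 9.73 and 9.83 for WT, 9.67 and 9.91 for arr1, 9.27 and 9.63 for arr10, and 9.16 and 9.42 for arr12. It read 9.13 and 9.67 for arr1/10, 8.50 and 8.48 for arr1/12, and 9.46 and 9.30 for arr10/12, against 10.10 and 11.87 for arr1/10/12, 10.24 and 10.09 for mock-treated WT, and 9.88 and 10.06 for CK-treated WT. Its log2 fold change was −1.29 ± 0.40 in arr1/12 and 1.21 ± 0.40 in arr1/10/12. The triple mutant value rested largely on replicate 2. Replicate 1 lay 0.27 above the higher WT array and replicate 2 lay 2.04 above it. The summed green tissue markers were higher on replicate 1, and any relation between the 2 was not tested.

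**Figure D2:**
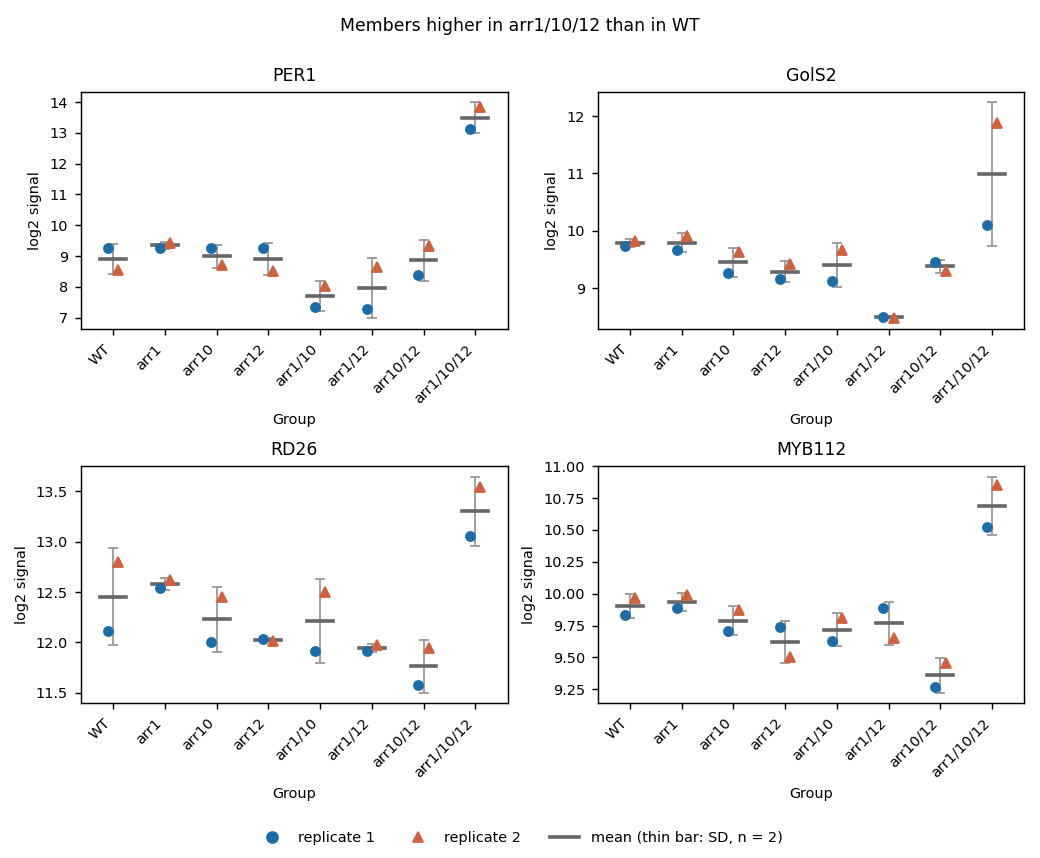
Log2 signal (vertical axes, which differ between panels and do not start at 0) of PER1, GolS2, RD26, and MYB112 in the 8 untreated groups; circles are replicate 1, triangles replicate 2, thick bars the mean, and thin bars the SD (n = 2). Each gene is above WT on both arr1/10/12 arrays and below WT on both arrays of at least 1 double mutant.

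These 4 genes were all those of the 28 that were higher in the triple mutant, and they stand in Clusters 5, 7, and 9, where the study had called them lower in a double mutant. Of the 12 genes of these clusters, 4 (33.3%) had both arrays of a double mutant below and both triple mutant arrays above both WT arrays. So did 99 of the 514 other tested genes of these clusters (19.3%). No test of this difference was made.

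DR4, a protease inhibitor-like protein known for a root transcript that declines in drought, had the lowest log2 fold change in the triple mutant, −2.61 ± 0.15. It read 17.71 and 17.78 for WT, 17.79 and 17.78 for arr1, 17.85 and 17.72 for arr10, and 17.74 and 17.76 for arr12. It read 17.55 and 17.59 for arr1/10, 17.60 and 17.54 for arr1/12, and 17.70 and 17.83 for arr10/12, against 14.82 and 15.44 for arr1/10/12, 17.58 and 17.46 for mock-treated WT, and 17.50 and 17.41 for CK-treated WT. The 14 other untreated arrays spanned 17.54 to 17.85. AT1G59860, a small heat shock protein, had its lowest means among the untreated groups in arr1/12, arr10/12, and arr1/10/12. It read 10.26 and 10.23 for WT, 10.18 and 10.02 for arr1, 10.11 and 9.78 for arr10, and 10.05 and 9.57 for arr12. It read 10.21 and 9.80 for arr1/10, 9.86 and 9.41 for arr1/12, and 9.42 and 9.63 for arr10/12, against 8.76 and 8.13 for arr1/10/12, 9.50 and 9.48 for mock-treated WT, and 9.61 and 9.49 for CK-treated WT. Its log2 fold change was −0.71 ± 0.23 in arr10/12 and −1.80 ± 0.23 in arr1/10/12. Of the remaining protective genes, GLP9, a germin-like protein, had a log2 fold change of −2.10 in the triple mutant but was above WT on both arr1/12 arrays, which read 11.03 and 10.81 against 10.44 and 10.59 for WT. GSTF10, a glutathione S-transferase, and RD2, named for its response to desiccation, had log2 fold changes of −0.95 and −0.85 in the triple mutant. ERD7, an early-responsive gene of dehydration, had a log2 fold change of −0.58 ± 0.20 in arr1/10 and −0.55 ± 0.20 in arr1/10/12.

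The 4 signalling and protein turnover genes had separate patterns. WOL, a cytokinin receptor, had a log2 fold change of −1.03 in arr1/10/12 and lay within 10.50 to 11.04 on the 14 other untreated arrays. It read 10.71 and 10.60 for WT, 10.67 and 10.76 for arr1, 10.70 and 10.95 for arr10, and 10.50 and 11.003 for arr12. It read 10.76 and 10.92 for arr1/10, 10.64 and 10.80 for arr1/12, and 10.91 and 11.04 for arr10/12, against 9.54 and 9.71 for arr1/10/12, 10.37 and 10.64 for mock-treated WT, and 11.86 and 11.95 for CK-treated WT. OTS2, a SUMO protease linked to salt tolerance, had a log2 fold change of −0.98 in arr1/10/12, and its arr10/12 arrays lay above both WT arrays. RAN-1, a small GTPase of nuclear transport, was lower in both arr10/12 and arr1/10/12. It read 16.71 and 16.64 for WT, 16.59 and 16.69 for arr1, 16.59 and 16.75 for arr10, and 16.55 and 16.57 for arr12. It read 16.56 and 16.68 for arr1/10, 16.58 and 16.54 for arr1/12, and 15.83 and 15.93 for arr10/12, against 15.80 and 15.88 for arr1/10/12, 16.59 and 16.56 for mock-treated WT, and 16.72 and 16.50 for CK-treated WT. Its log2 fold change was −0.80 ± 0.09 in arr10/12 and −0.84 ± 0.09 in arr1/10/12, and the arrays of these 2 groups overlapped each other.

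PBG1, a subunit of the 20S proteasome, belongs to Cluster 3, but its arr12 mean was only slightly below that of WT in these values. It read 15.14 and 14.78 for WT, 14.88 and 14.57 for arr1, 14.94 and 14.65 for arr10, and 15.05 and 14.66 for arr12. It read 15.01 and 14.65 for arr1/10, 14.87 and 14.63 for arr1/12, and 14.97 and 14.69 for arr10/12, against 14.98 and 14.76 for arr1/10/12, 14.99 and 14.86 for mock-treated WT, and 14.75 and 14.67 for CK-treated WT. The arr12 arrays overlapped those of WT, with a log2 fold change of −0.10 ± 0.19. The probe has 2 spots on each array, and the scanner software marked the spot that pairs with the gene as an outlier on arr12 replicate 1. That spot read 11.89 in the authors' log2 table, against 14.30 to 14.89 on the 15 other untreated arrays, and the second spot on the same array read 15.23. The difference between arr12 and WT in that table was −1.57 for the paired spot and −0.09 for the second spot. This was the only outlier mark on the spots of the 28 genes over all 20 arrays (1 of 840 spot readings), and the marked spot was left out of the values above. The arr12 replicate 1 value is therefore the second spot alone, which read higher than the paired spot on every array. From the second spot alone in both groups, the normalized difference between arr12 and WT was −0.12.

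**Figure D3:**
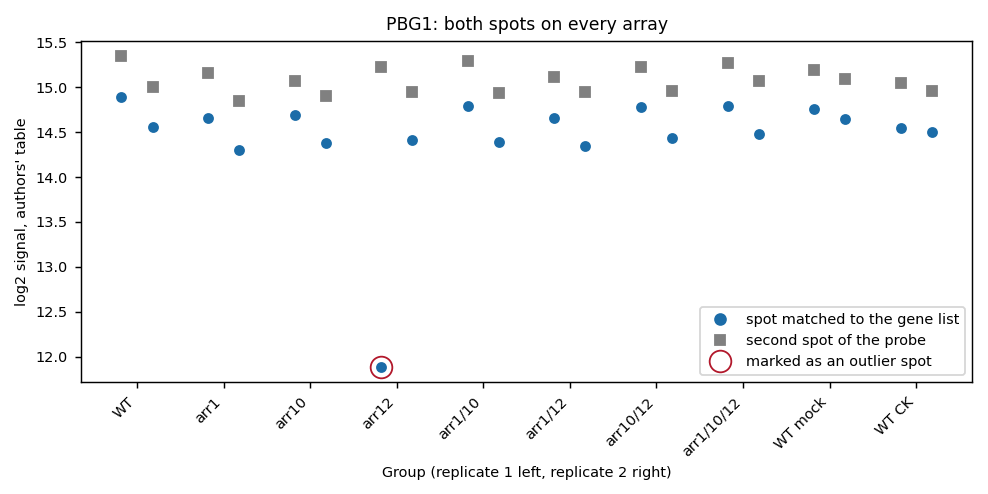
Log2 signal in the authors' table (vertical axis, which does not start at 0) of both PBG1 spots on each of the 20 arrays, with replicate 1 left and replicate 2 right in each group; the ring marks the outlier spot. The paired spot at 11.89 on arr12 replicate 1 stands below all its other readings, while the second spot on that array does not.

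All 9 metabolic enzymes and wall or vacuole proteins had a lower mean in the triple mutant, with log2 fold changes from −1.42 to −0.32. The share of all probes with a lower mean was not computed. BGLU35, a beta-glucosidase, had the lowest log2 fold change. It read 14.75 and 14.53 for WT, 14.48 and 14.62 for arr1, 14.75 and 14.49 for arr10, and 14.63 and 14.99 for arr12. It read 14.63 and 14.73 for arr1/10, 14.50 and 14.62 for arr1/12, and 14.41 and 14.88 for arr10/12, against 13.02 and 13.41 for arr1/10/12, 14.53 and 14.38 for mock-treated WT, and 14.59 and 14.38 for CK-treated WT. Among those of Cluster 15, IMD3, an isopropylmalate dehydrogenase of leucine synthesis, followed at −1.41 ± 0.10. XF1, a squalene epoxidase of sterol synthesis, was at −1.0 ± 0.11, AT1G62480 at −0.96 ± 0.09, and AT1G59960 at −0.80 ± 0.08. These 5 genes are of Cluster 15, whose genes were chosen because the study called them lower in the triple mutant. Their log2 fold changes in the double mutants lay between −0.10 and 0.12.

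The other 4 enzymes and proteins are of Cluster 5 and were lower in the double mutants as well. GSR2, a cytosolic glutamine synthetase, read 14.46 and 14.22 for WT, 14.22 and 13.89 for arr1, 14.20 and 14.28 for arr10, and 14.46 and 13.68 for arr12. It read 13.71 and 13.61 for arr1/10, 13.92 and 13.63 for arr1/12, and 13.83 and 13.93 for arr10/12, against 12.90 and 13.10 for arr1/10/12, 13.17 and 13.81 for mock-treated WT, and 13.64 and 13.76 for CK-treated WT. Both arrays of every double mutant and of the triple mutant lay below both WT arrays. AT1G03220, an aspartyl protease family protein, read 13.37 and 13.67 for WT, 13.69 and 13.40 for arr1, 13.52 and 13.50 for arr10, and 13.52 and 13.17 for arr12. It read 12.74 and 12.80 for arr1/10, 12.98 and 12.98 for arr1/12, and 12.96 and 13.03 for arr10/12, against 12.91 and 13.49 for arr1/10/12, 12.93 and 13.35 for mock-treated WT, and 13.73 and 13.66 for CK-treated WT. It was lower in arr1/10 (−0.75 ± 0.19) than in arr1/10/12 (−0.32 ± 0.19), and the arr1/10/12 arrays overlapped those of WT. GT72B1, a glycosyltransferase of phenolic compounds, had log2 fold changes of −0.57 (arr1/10), −0.52 (arr1/12), −0.33 (arr10/12), and −0.62 (triple mutant). AT1G55450, a predicted methyltransferase, had log2 fold changes of −0.54 in arr1/10 and −0.86 in arr1/10/12.

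By cluster, the median log2 fold change in the triple mutant was −1.0 for the 13 Cluster 15 genes, −0.62 for the 7 of Cluster 5, −0.02 for the 4 of Cluster 9, and −0.59 for the 3 of Cluster 3. The other tested genes of the same clusters had medians of −1.58 (n = 778), −0.89 (n = 134), −0.28 (n = 90), and −0.03 (n = 101). Over the 12 genes of Clusters 5, 7, and 9, the medians were −0.53 in arr1/10, −0.52 in arr1/12, and −0.43 in arr10/12. For the 514 other tested genes of these clusters they were −0.51, −0.59, and −0.38. Each of the 12 had a lower mean than WT in arr1/10 and in arr10/12, and 11 of them had one in arr1/12. Of the 514, 501 had a lower mean in arr1/10, 477 in arr10/12, and 503 in arr1/12.

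Of 54 other genes of ABA, drought, salt, and cytokinin perception that were listed for comparison, 6 had an assigned probe, all from the study's lists of changed genes. In the triple mutant 5 of them were called higher (23.2% of all probes) and 1 lower (31.1%), which is again a description. NAC3, a NAC factor close to RD26, was 11.31 and 11.74 in arr1/10/12 against 7.09 and 7.53 for WT, and COR15A, a chloroplast protein of freezing tolerance, was 12.04 and 9.13 against 5.44 and 5.60. GolS3, a relative of GolS2, was 5.06 and 7.11 against 8.88 and 9.23, the opposite direction to GolS2. NAC019, CBF2, and NCED3 had log2 fold changes of 1.65, 1.28, and 1.07. The median over the 6 was 1.46 in the triple mutant but −0.55 in arr1/10, −0.70 in arr1/12, and −0.81 in arr10/12. It was 0.18 in arr1, 0.17 in arr10, and −0.13 in arr12. The only call in a double mutant was NAC3, lower in arr1/12 (−0.94 ± 0.19), where 1.37% of all probes were called lower.

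The CK comparison asked whether these genes also respond to exogenous CK within 1 h in WT roots. Of the 28 genes, 3 rose (WOL, ADAP, CPL3; 3.54% of all probes rose) and 1 fell (ABF2; 3.03% fell) in CK-treated against mock-treated WT (limma, Benjamini-Hochberg adjustment over 34034 probes). Both CK arrays lay above both mock arrays for 9 genes (33.1% of all probes) and below for 8 (25.6%). Without CK replicate 2 no gene was called lower, and without either arr1/10/12 array 2 were. The median log2 fold change of the 28 was 0.03, as was that of all probes. The type-A response regulators ARR7, RR5, and ARR15, known targets of cytokinin, rose with log2 fold changes of 2.63, 3.01, and 4.65. The log2 of the summed green tissue markers was 12.45 and 12.66 in mock-treated and 12.63 and 12.66 in CK-treated WT, and that of the root markers was 12.80 and 13.47 against 13.24 and 13.40.

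WOL rose from 10.37 and 10.64 in mock-treated to 11.86 and 11.95 in CK-treated WT, above all 18 other arrays. Its log2 fold change was 1.40 (95% interval 1.06 to 1.74, adjusted p = 1.51e-04), with 1.49 and 1.31 on the first and second scan day. ADAP rose from 12.44 and 12.53 to 13.05 and 12.97, a log2 fold change of 0.52 (95% interval 0.36 to 0.69, adjusted p = 0.00105). Its untreated WT arrays, 12.97 and 12.90, were close to the CK-treated ones, and the mock-treated arrays were the lower ones. ADAP was not called when only the mock and CK arrays were fitted (adjusted p = 0.0871) or with normalization within each experiment (0.0861).

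CPL3 rose from 8.52 and 8.25 to 9.01 and 9.03 (log2 fold change 0.63, 95% interval 0.28 to 0.99, adjusted p = 0.039), and untreated WT was higher than both, at 9.26 and 9.46. This call was lost under 75th percentile scaling (adjusted p = 0.0883), with no filter on dim probes (0.0550), with the slide as a random block (0.0628), with normalization within each experiment (0.116), with the mock and CK arrays alone (0.112), and without any 1 of the mock, CK, arr1, or arr1/10 arrays (0.0525 to 0.191). ABF2 fell from 12.12 and 11.94 to 11.52 and 11.50, a log2 fold change of −0.52 (95% interval −0.72 to −0.31, adjusted p = 0.00556). Its CK-treated arrays were below both arr1/10/12 arrays, and it was not called without mock replicate 1 (adjusted p = 0.0772, where GT72B1 was called instead), without CK replicate 2 (0.0542), within each experiment (0.104), or with the mock and CK arrays alone (0.104).

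**Figure D4:**
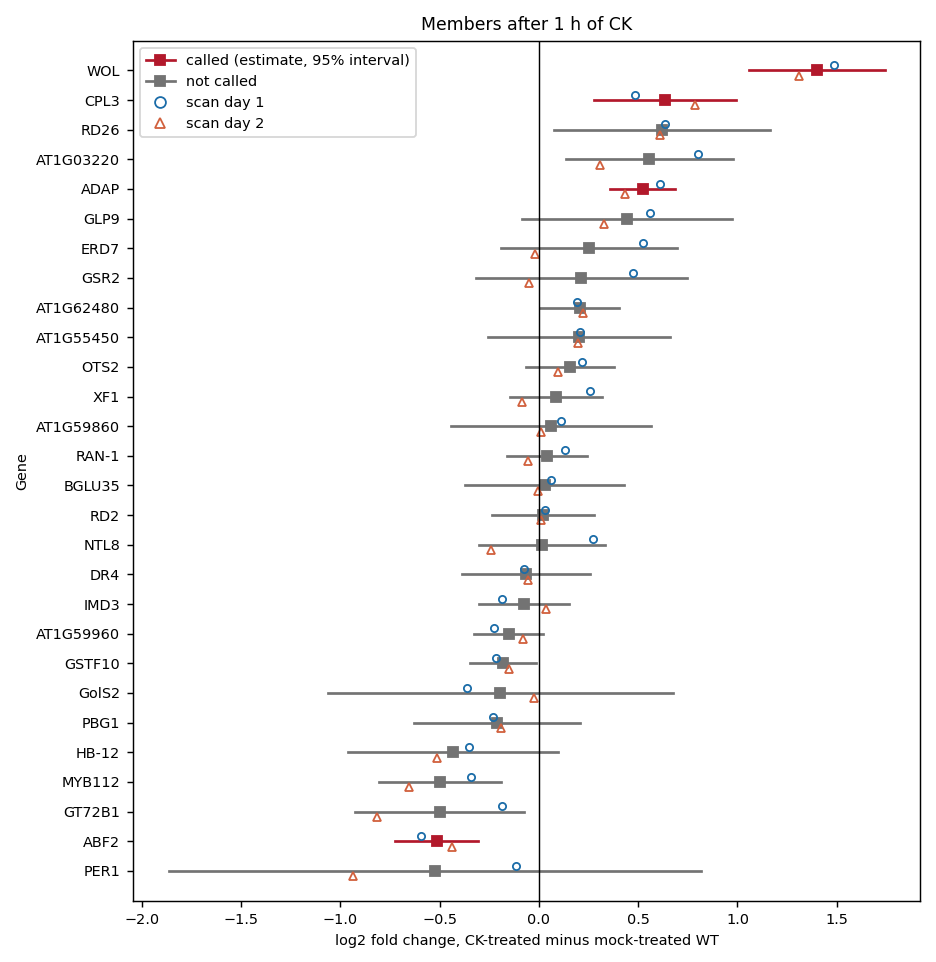
Log2 fold change of CK-treated against mock-treated WT (horizontal axis) for each of the 28 genes; squares are estimates and bars 95% intervals from limma, red where called, and open symbols are the differences on scan day 1 (circles) and scan day 2 (triangles). WOL lies farthest from 0, and the interval of PER1 is the widest.

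MYB112 read 9.24 and 9.47 in mock-treated and 8.90 and 8.82 in CK-treated WT, with a log2 fold change of −0.50 (95% interval −0.81 to −0.19) that did not pass the threshold (adjusted p = 0.0591). A fit with the replicate number as a block called 4 genes higher and 2 lower, adding RD26 (adjusted p = 0.0385) and MYB112 (0.0355). RD26 read 11.91 and 12.02 in mock-treated and 12.55 and 12.63 in CK-treated WT, a log2 fold change of 0.62 (95% interval 0.08 to 1.17, adjusted p = 0.206 without the block). In all, 10 of the 28 had an unadjusted p under 0.05, 6 higher (9.68% of all probes) and 4 lower (8.03%). The difference had the same sign on both scan days for 21 genes, near the background of 70.6% of all probes. For 24 genes the 95% interval lay within −1 and 1. The exceptions were WOL, RD26, GolS2, and PER1.

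Mock-treated and untreated WT also differed from each other in several genes. Mock-treated WT lay below untreated WT on both arrays for 16 of the 28 genes (29.9% of all probes) and above for 2 (24.3%), with a median log2 fold change of −0.20 against −0.03 for all probes. As these untreated arrays also chose the members, this is a description. In 4 genes (ADAP, CPL3, RD26, AT1G03220) mock-treated WT was below untreated WT and CK-treated WT was above mock-treated WT, on both arrays each (11.4% of all probes). In 5 genes (ABF2, MYB112, HB-12, GT72B1, AT1G59960) mock-treated WT was below untreated WT and CK-treated WT lower still (6.85% of all probes). Both counts share the mock-treated arrays. Each mock or CK array lay on a slide of its own, so slide and treatment cannot be told apart beyond the scan day.

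**Figure D5:**
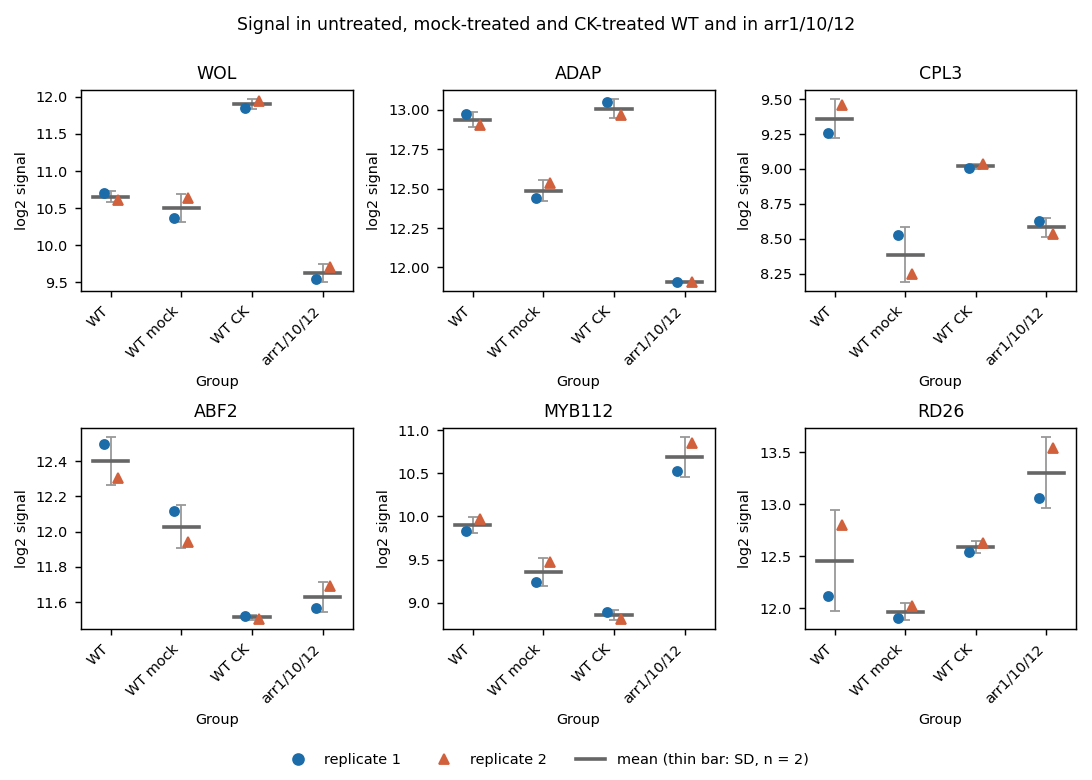
Log2 signal (vertical axes, which differ between panels and do not start at 0) of 6 genes in untreated, mock-treated, and CK-treated WT and in untreated arr1/10/12; circles are replicate 1, triangles replicate 2, thick bars the mean, and thin bars the SD (n = 2). WOL is above untreated WT after CK, ADAP and RD26 are level with it, CPL3 lies between mock and untreated WT, and ABF2 and MYB112 are below both.

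The directions in the triple mutant and after CK differed from gene to gene. Of the 24 genes with a lower mean in the triple mutant, 16 had a higher and 8 a lower mean after CK. Of the 4 with a higher mean in the triple mutant, 1 (RD26) had a higher and 3 a lower mean after CK. Several differences after CK were near 0 in either direction, such as 0.02 for NTL8 and −0.06 for DR4. The share over all probes was not computed, so nothing is read from these counts. Among the called genes, WOL, ADAP, and CPL3 were lower in the triple mutant and rose with CK, whereas ABF2 was lower in the triple mutant and also fell with CK.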

How the data were processed

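Root RNA labelled with Cy3 was hybridized to Agilent one-colour arrays, 2 per group in 10 groups. For each array the authors deposited the scanner output of Feature Extraction 10.7.1.1, which holds the background-subtracted intensity of each of 62976 spots, not normalized between arrays. Their log2 table, also deposited, was recomputed from the median signals by quantile normalization of the 16 untreated arrays and, separately, the 4 others (differences of at most 5e-09). Groups and replicate numbers come from the labels, and the replicates are biological by the study's methods. The members and all gene lists were chosen with earlier results of these data known.

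The intensities were log2 transformed and quantile normalized over 61657 non-control spots of 20 arrays. Spots with an outlier mark, 1 to 386 on each array, were dropped before averaging over the spots of each probe. A probe was kept if some group had it well above background on both its arrays (34034 of 43603), and the kept probes were fitted with limma 3.58.1 in R 4.3.3, with 1 coefficient per group, 10 residual and 2.11 prior degrees of freedom, and a call required an adjusted p (Benjamini-Hochberg) below 0.05. Arrays were simulated with independent noise and 200 of 34034 probes changed in the CK group. There limma recovered 1 at a log2 change of 0.5, 127 at 1, and 181 at 2. The real CK comparison had more calls (1206 higher and 1032 lower), which loosens the Benjamini-Hochberg threshold. The simulation therefore does not give the detection rate of that comparison. A bound for a probe below background uses the higher of its own signal and the lowest signal well above background on that array. Tables were made with Python 3.11.15, numpy 2.4.6, pandas 2.3.3, and scipy 1.17.1. No spot was saturated, and the number of arrays limits the precision (median standard error 0.16).

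Genes were assigned to probes through the fold changes in the study's gene list, each of which fitted a single spot in the deposited log2 table (tolerance 0.0005, largest distance for a member 4.7e-05, next spot at least 0.0499 away). The gene list was held in part, and the 13 members without a probe lie in the missing stretch. The secondary metabolic process list of Cluster 15 was readable for 36 of 61 genes, so its exclusion is not complete. Of the assigned members, 14 have 1 spot and 14 have 2.

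Values on every array are given for the 3 members (all where fewer) with the lowest log2 fold change in the mutant that defines each cluster, for members whose arr1/10/12 arrays both lie above both WT arrays, and for members called after CK. The other members are given by fold changes and counts.

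As a check of pairing, the deviation of replicate 1 from the group mean was correlated over probes between untreated groups (0.17 to 0.52 in 28 pairs). These groups share a slide and scan day within a replicate number, and the numbers therefore pair these arrays. The main fit, with its standard errors and calls, did not use this pairing, whereas the replicate block listed below did. Between the mock and CK groups this correlation was −0.04.

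Alternatives were 75th percentile scaling, the authors' table, no filter, a filter on all arrays, and normexp background correction of the median signal (offset 50). The files have no mean signal column. Further alternatives were a replicate block, the slide as a random block, array weights, separate normalization of each experiment, and the matched spot alone. Also tried were fits restricted to the 4 arrays compared, a plain t-test on those arrays, and each array left out in turn.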

Additional observations from a re-analysis of the deposited data

Results flagged for a closer look

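A set of 4 members lay below both WT arrays in a double mutant and above both WT arrays in the triple mutant, on both arrays of each. Low values in a double mutant had placed these members in Clusters 5, 7, and 9, so that part of the pattern was fixed by the choice. The pattern held for 4 of the 12 members of these clusters (33.3%) and for 99 of the 514 other tested genes (19.3%). Values are the log2 fold change in arr1/10/12 minus that in the double mutant. The choice enlarges these differences, and they were not tested. For PER1 the difference was 5.79 from arr1/10. For GolS2 it was 1.59 from arr1/10, 2.50 from arr1/12, and 1.61 from arr10/12. For RD26 it was 1.36 from arr1/12 and 1.54 from arr10/12. For MYB112 it was 0.97 from arr1/10 and 1.33 from arr10/12. All these comparisons share the WT arrays, and WT replicate 1 or arr1/10/12 replicate 2 decided whether RD26 and GolS2 were called in the triple mutant.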

How the results depend on the processing

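Among the medians and the named fold changes recomputed, the sign changed only for values that were not called: the members' median after CK (−0.0046 without CK replicate 1), and the log2 fold changes of PBG1 in arr12 (−0.31 to 0.094 over 31 alternatives, above 0 in 4) and in arr1/10/12 (−0.27 to 0.096, above 0 in 2). In the CK comparison, the 3 genes called higher became 1 within each experiment and with the 4 arrays alone. They became 5 by a plain t-test (unadjusted p up to 0.05) and 0 by that test after Benjamini-Hochberg adjustment. The study's own rule combined permutation p-values of a t-test and a ratio test and added a fold change cutoff. That rule was not applied here. The 1 gene called lower became 2 under 75th percentile scaling, normexp, the authors' table, the filter on all arrays, the replicate block, array weights, and the matched spot, where MYB112 was added. It became 0 within each experiment and with the 4 arrays alone, 3 by the t-test and 0 after adjustment, and 0 to 2 with 1 array left out. WOL was called in all 31 alternatives with a limma fit (adjusted p 1.23e-05 to 0.0424), ADAP in 29, ABF2 in 27, and CPL3 in 18. In single mutants the t-test called 1 gene lower. In double mutants it called 1 higher and 11 lower before adjustment and 0 lower after it. The 2 called lower there became 1 with the filter on all arrays, 5 with the slide as a random block, 0 with the 4 arrays alone, 4 with array weights, and 1 to 4 with 1 array left out. In the triple mutant the 4 called higher became 2 with the 4 arrays alone, 2 by the t-test, and 0 after adjustment, with 2 to 4 when 1 array was left out. The 21 called lower became 0 by the t-test after adjustment and ranged from 19 to 22 with 1 array left out. The replicate block changed no other count by over 1.5 times. The causes were not tested.

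The median log2 fold change of the members moved beyond the spread between replicates in few cases. Under 75th percentile scaling it was −0.14 in arr12, −0.26 in arr1/10, and −0.28 in arr1/12. In arr1/10 it was also −0.17 with normexp, −0.15 in the authors' table, and −0.20 with the matched spot, and in arr10/12 it was −0.13 with the filter on all arrays, which leaves out NTL8. With 1 array left out, it ranged from −0.081 to −0.028 in arr1, −0.089 to −0.026 in arr10, −0.29 to −0.057 in arr12, −0.23 to −0.13 in arr1/10, −0.21 to −0.13 in arr1/12, −0.35 to −0.21 in arr10/12, −0.97 to −0.84 in arr1/10/12, −0.0046 to 0.13 after CK, and −0.28 to −0.12 for mock treatment. Only 2 arrays per group limit all values.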
